A study of Mus musculus with 6 samples.

Results

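Genes that interferons are known to induce were followed in mouse liver after interleukin-6 (IL-6): 45 antiviral effectors, interferon-inducible GTPases, antigen-processing genes, RNA sensors and genes linked to ADP-ribosylation. The genes were chosen by symbol, with earlier results of these data known, so no set test was made. Each was read from the probe set with the highest mean where several carried its symbol alone. Of the 45 genes, 39 were measured in this way among 19938 genes in all. Isg15, Gbp2, Gbp6, Igtp and Irgm2 lay only on probe sets that the platform table assigns to several genes, and Ifi44 was not listed there, so these 6 entered no count. Whole liver came from male C57BL6 mice, an inbred strain, aged 10 weeks and fasted for 16 h overnight. Of these, 3 samples were from mice given saline intraperitoneally and 3 from mice given 100 ng of IL-6 per mouse, with livers taken after 1 h. Each of the 6 arrays was a 1-colour Affymetrix array of 1 sample. The values are log2 expression per probe set, made by the authors with RMA, a method that corrects background, normalizes arrays to one another and combines the readings of all probes in a probe set.

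Type I interferons signal through the receptor chains IFNAR1 and IFNAR2 to a transcription factor complex that holds STAT2 and IRF9 and binds the interferon-stimulated response element (ISRE) in promoters. Interferon gamma acts mainly through the gamma-activated site (GAS). IL-6 signals through gp130 and mainly activates STAT3, whose dimers bind a site of much the same form as GAS. Most inbred laboratory strains, C57BL6 among them, carry a defective Mx1 gene, so the strain limits what its transcript says about antiviral function. For Mx2 too, RNA values do not show whether a working antiviral protein is made in these mice.

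After 1 h of IL-6, 2 of the 39 measured genes rose. Mx2, an interferon-inducible dynamin-like GTPase gene, rose 3.06-fold and Iigp1, which encodes a GTPase that acts on the vacuoles of intracellular parasites, rose 1.58-fold (limma, adjusted p under 0.05 over 19938 genes, n = 3 arrays per group). The call of Iigp1, unlike that of Mx2, was lost in 7 of 17 alternatives, including the omission of saline replicate 3 or of any IL-6 array, which left 1 called gene. A call in the higher direction was made for 0.386% of all genes. None of the 39 was called lower by limma, where the background was 0.0351% of all genes. At an unadjusted limma p under 0.05, 8 were higher and 1 was lower, against 3.78% and 2.83% of all genes. The remaining 37 genes did not pass the adjusted threshold.

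Differences were small and mostly of one sign. Of the 39 log2 differences (IL-6 minus saline), 35 were positive, which is 89.7%, against 51.1% of all genes. Positive differences also made up 88.9% of 9 Kupffer cell and macrophage markers and 83.3% of 6 endothelial and of 6 hepatocyte markers. Of other antigen presentation genes, 12 of 12 were positive. Not every list leaned this way, with 33.3% of 6 neutrophil markers and 22.2% of 9 T and NK cell markers positive. Of the constitutive proteasome subunits, 7 of 14 were positive. The share was 63.6% over all 44 cell type markers and 73.3% over 75 other interferon pathway genes. The median over the 39 was 0.13, against 0.003 over all genes, and the median standard error of a member was 0.094. In 12 genes all IL-6 values lay above all saline values, against 6.15% of all genes, and in 1 all lay below, against 5.48%. The 12 were Mx2, Isg20, Eif2ak2, Ifit3, Ifit1, Iigp1, Irgm1, Psmb10, Dhx58, Parp14, Dtx3l and Ifi35, and the 1 was Oas1a. Relative to the saline mean of each gene, the median over the 39 genes was 0.12, 0.19 and 0.10 in IL-6 replicates 1, 2 and 3, and -0.002, 0.03 and -0.01 in saline replicates 1, 2 and 3. The 3 IL-6 arrays thus lay above the 3 saline arrays by this measure, which was also so without Mx2 and Iigp1 (0.12, 0.18 and 0.07). The genes share arrays and regulators, so they are not replicates of the treatment. They were also chosen with earlier results of these data known. The shares and medians here are therefore descriptions and were not tested. The labels do not state that each array stands for a separate animal, so the p-values speak for the spread among these arrays, and with 3 arrays a side the smallest p of an exact permutation test is 0.1.

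**Figure D1:**
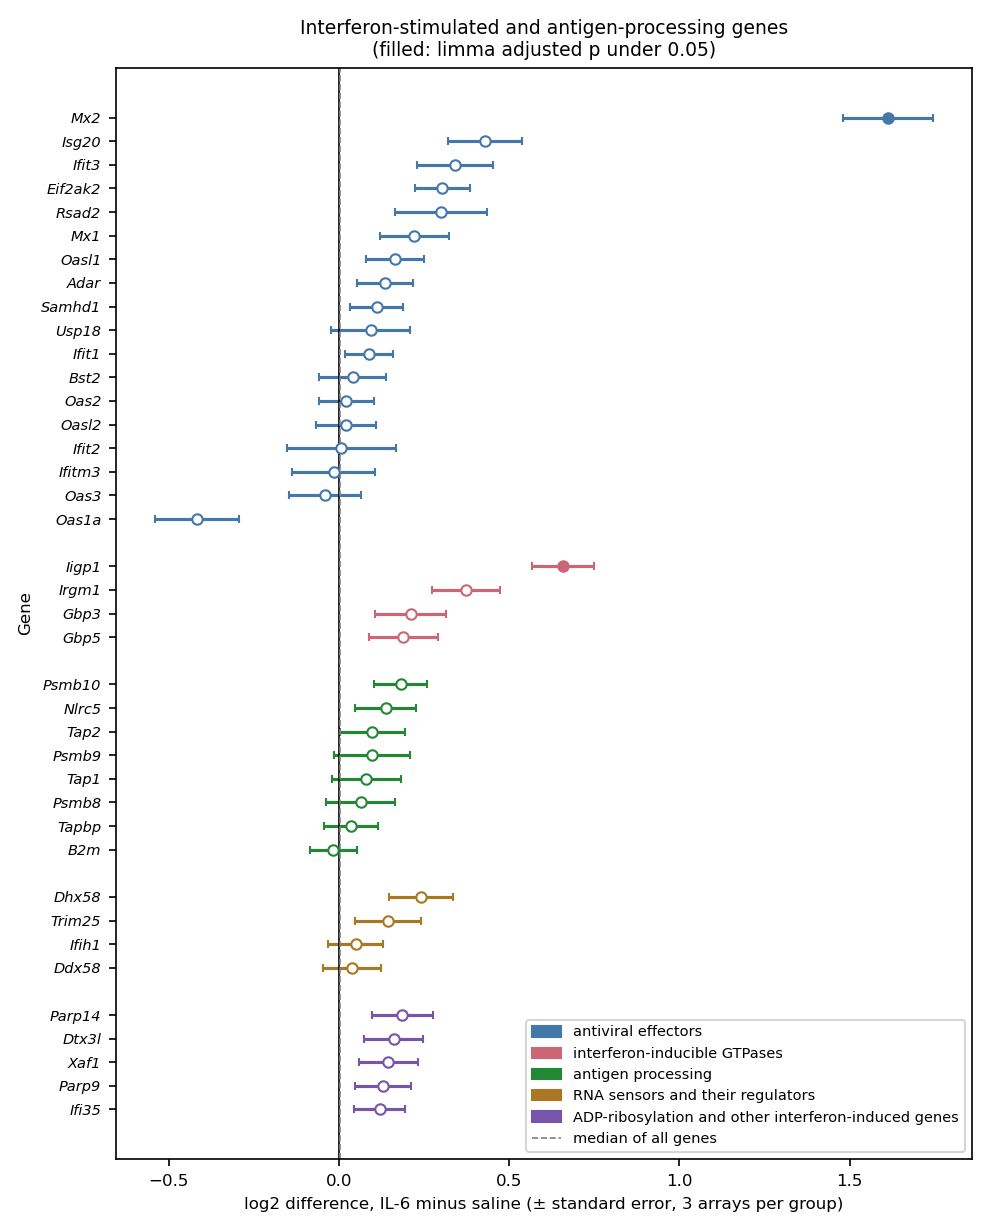
The log2 difference, IL-6 minus saline, of each of the 39 measured genes is plotted by role, with bars of ± 1 standard error from limma (3 arrays per group) and a dashed line at the median of all genes. Mx2 at 1.61 and Iigp1 at 0.66 are the filled, called points, Oas1a at -0.42 lies farthest to the left, and the other genes lie between -0.04 and 0.43.

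Promoter sequence was not itself used to choose the genes. They were chosen as genes that interferons are known to induce, and interferons act through ISRE and GAS sites. The shares of matches below are therefore not independent of the choice. RefSeq windows on build GRCm38.p6, from 250 bases before to 50 bases after each annotated start, were given for 34 of the 45 genes, and Mx1, Mx2, Oas2, Usp18, Gbp6, Iigp1, Tap2, Nlrc5, Dhx58, Parp9 and Parp14 had none. The ISRE letters, GAAA followed by any 2 bases and a further GAAA, searched on both strands, occurred in 18 of these 34 genes (52.9%) and in 3.99% of the 27025 genes of the table. The GAS letters TTCNNNGAA, which read the same on both strands, occurred in 13 of 34 (38.2%) and in 9.55% of all genes. Neighbouring ISRE matches could overlap each other, and 2 of the 14 GAS matches overlapped an ISRE match. Sequence is shown for the genes at an unadjusted p under 0.05 that held a match before the start, together with Ifit1 and B2m, which held ISRE matches and differed little. Each line runs 5′ to 3′ on the strand of the gene, and capitals mark ISRE or GAS matches with 20 bases, or as many as precede the start, on either side. Matches after the start are not shown, among them an ISRE match in Eif2ak2.
Isg20, chr7:78913331-78913379, plus strand, 1 GAS: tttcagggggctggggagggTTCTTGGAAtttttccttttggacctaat
Irgm1, chr11:48871421-48871470, minus strand, 2 overlapping ISRE: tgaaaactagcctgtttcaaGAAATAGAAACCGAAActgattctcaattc
Ifit3, chr19:34583353-34583436, plus strand, 2 ISRE: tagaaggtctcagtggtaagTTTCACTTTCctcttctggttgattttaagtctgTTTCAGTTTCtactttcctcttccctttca
Oas1a, chr5:120907526-120907643, minus strand, 1 GAS then 2 overlapping ISRE: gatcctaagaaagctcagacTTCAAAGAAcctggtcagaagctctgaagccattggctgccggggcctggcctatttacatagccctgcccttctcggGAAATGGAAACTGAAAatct
Eif2ak2, chr17:78882722-78882770, minus strand, 1 GAS: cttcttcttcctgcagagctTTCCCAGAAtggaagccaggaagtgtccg
Ifit1, chr19:34640765-34640833, plus strand, 2 ISRE: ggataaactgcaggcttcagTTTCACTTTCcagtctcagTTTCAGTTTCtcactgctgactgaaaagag
B2m, chr2:122147528-122147577, plus strand, 1 ISRE: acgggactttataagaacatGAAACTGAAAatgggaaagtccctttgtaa

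Genes with and without a match had overlapping ranges of response. Among the 29 measured genes with a window, the 14 with an ISRE match had a median log2 difference of 0.07, from -0.42 in Oas1a to 0.37 in Irgm1, and the 15 without had 0.12, from 0.007 to 0.43. The 11 with a GAS match had a median of 0.11 and the 18 without had 0.12. None of the 29 was called by limma, since neither called gene had a window, and 6 of the 29 had an unadjusted limma p under 0.05. Over all tested genes with an ISRE match, 607 in number, the median was 0.007, and over the 1403 with a GAS match it was 0.008. These are descriptions of letters in a short window, and a match is not shown to be a bound site.

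The antiviral effectors held the largest rise and the lower gene. Of 18 measured, Mx2 rose, 17 did not pass, and 15 had positive differences, with a median of 0.10. Mx2 (probe set 10437224) read 4.91, 5.41 and 4.91 in saline replicates 1, 2 and 3 and 6.67, 6.61 and 6.79 in IL-6 replicates 1, 2 and 3. All IL-6 arrays lay more than a log2 unit above the highest saline array, saline replicate 2. The difference was 1.61 ± 0.13 (standard error, limma adjusted p = 0.000696), from 5.08 ± 0.28 to 6.69 ± 0.09 (SD, n = 3 each), with a 95% interval of 1.32 to 1.91. Its relative Mx1 (10441233) read 3.86, 4.01 and 3.89 after saline and 4.10, 3.98 and 4.34 after IL-6. These groups overlapped, and the difference of 0.22 ± 0.10 did not pass (limma adjusted p = 0.768). Both Mx1 levels lay below 4.59, the level of the 25th percentile over genes, a range in which signal and background are not easily told apart. The difference between the Mx2 and Mx1 responses was not tested.

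Isg20, an exonuclease that degrades single-stranded RNA, read 5.92, 5.56 and 5.74 in saline replicates 1 to 3 and 6.29, 6.19 and 6.03 in IL-6 replicates 1 to 3. The groups did not overlap, and IL-6 replicate 3 was the closest to saline. Its difference of 0.43 ± 0.11 did not pass (limma adjusted p = 0.287). Eif2ak2, which encodes PKR, a kinase that stops translation on sensing double-stranded RNA, read 6.39, 6.39 and 6.53 after saline and 6.78, 6.64 and 6.81 after IL-6. These values did not overlap either, with a difference of 0.30 ± 0.08 (limma adjusted p = 0.342).

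Ifit3, whose protein forms complexes with other IFIT proteins that bind viral RNA, read 5.40, 5.35 and 5.10 in saline replicates 1 to 3 and 5.83, 5.52 and 5.53 in IL-6 replicates 1 to 3. IL-6 replicate 1 stood highest, and the difference was 0.34 ± 0.11 (limma adjusted p = 0.531). Its relative Ifit1, which carries a like pair of ISRE matches in the sequences above, read 5.80, 5.81 and 5.80 after saline and 5.83, 5.92 and 5.93 after IL-6. Those groups were apart by little, with a difference of 0.09 ± 0.07 (limma adjusted p = 0.914). Ifit2 differed by 0.007 ± 0.16, with a 95% interval from -0.35 to 0.37, so that at this precision a change of the size seen in Ifit3 was not detectable there.

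Oas1a, a synthetase of the 2-5A messengers that switch on RNase L, was the gene with lower values throughout. Its own probe set (10533256) read 5.58, 5.71 and 5.38 in saline replicates 1 to 3 and 5.18, 5.33 and 4.91 in IL-6 replicates 1 to 3. The groups did not overlap, and IL-6 replicate 3 was lowest. The difference was -0.42 ± 0.12, and it did not pass (limma adjusted p = 0.441). Another probe set, shared with Oas1g, differed by -0.05 and its groups overlapped. The related Oas2 (0.02), Oas3 (-0.04), Oasl2 (0.02) and Oasl1 (0.16) did not pass, and their groups overlapped.

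The other antiviral effectors did not pass. Rsad2, which encodes viperin, an enzyme that makes a chain-terminating nucleotide, read 6.32, 5.98 and 5.91 after saline and 6.55, 6.43 and 6.13 after IL-6, a difference of 0.30 ± 0.13 with overlapping groups. The differences were 0.14 in Adar, an RNA-editing deaminase, 0.11 in Samhd1, which depletes dNTPs, and 0.09 in Usp18, which removes ISG15 from proteins and restrains interferon receptors. Bst2, which encodes the virus-tethering protein tetherin, differed by 0.04. Ifitm3, a membrane protein that hinders viral entry, read 9.84, 10.07 and 9.80 after saline and 10.00, 9.63 and 10.04 after IL-6, so IL-6 replicate 2 was lowest of all arrays while the other IL-6 arrays lay among the saline arrays. Its difference was -0.01 ± 0.12.

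**Figure D2:**
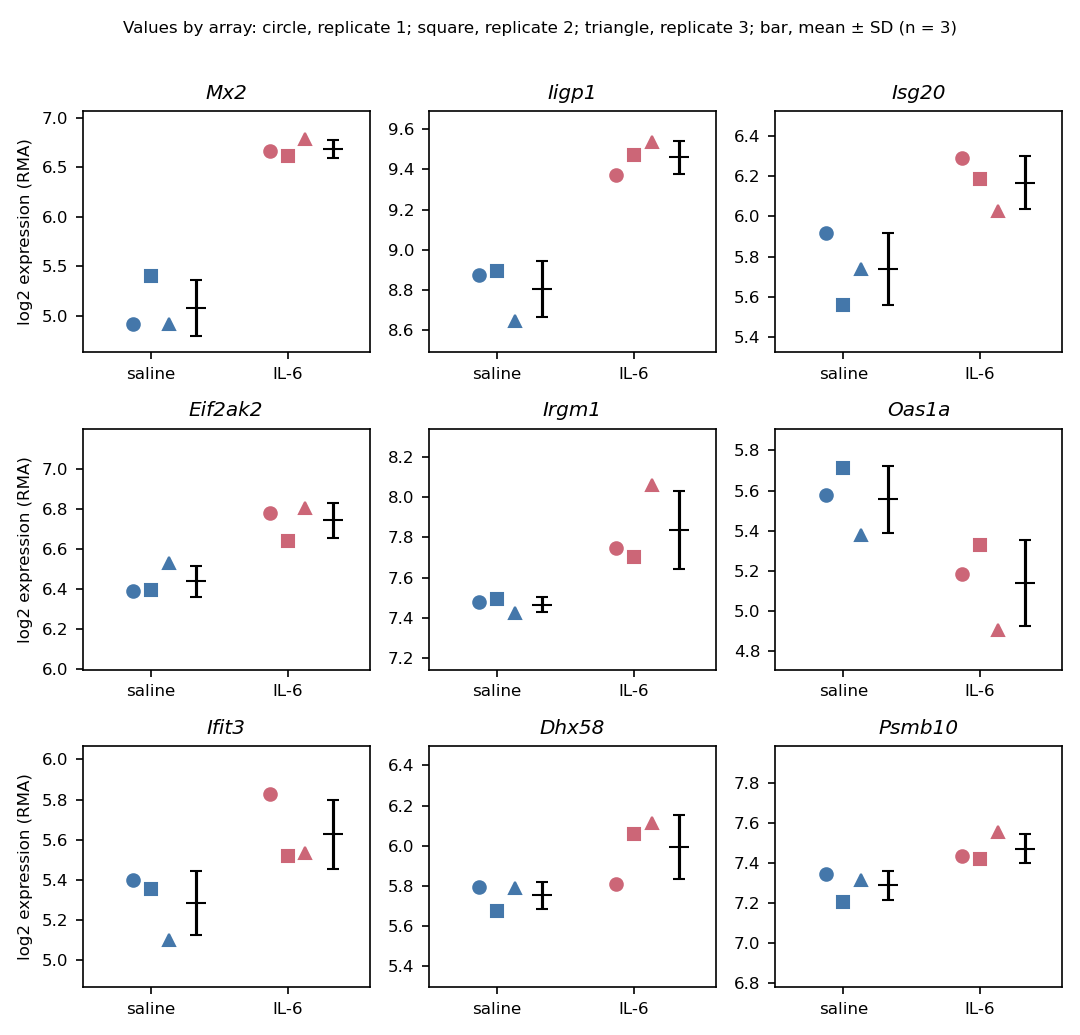
Log2 expression (vertical axes, RMA) of the 9 genes with an unadjusted limma p under 0.05 is shown per array for saline and IL-6 (horizontal axes), with marker shapes for replicate numbers and bars for the mean ± SD (n = 3). Mx2 moves from between 4.91 and 5.41 to between 6.61 and 6.79, Oas1a is lower in every IL-6 array, and in Dhx58, Oas1a and Psmb10 the groups nearly touch.

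Interferon-inducible GTPases, which coat and disrupt the vacuoles of intracellular pathogens, had a median difference of 0.29 over the 4 measured, with 1 called and all positive. Iigp1 (10455961) read 8.87, 8.90 and 8.64 in saline replicates 1 to 3 and 9.37, 9.47 and 9.54 in IL-6 replicates 1 to 3. The lowest IL-6 array was above the highest saline array, and saline replicate 3 was lowest. The difference was 0.66 ± 0.09 (limma adjusted p = 0.0154), with a 95% interval of 0.45 to 0.86. The call was lost with the replicate number as a block (limma adjusted p = 0.0595), when every probe set was tested (0.136), and without saline replicate 3 (0.0575) or IL-6 replicate 1 (0.0515), 2 (0.0795) or 3 (0.0870), with differences from 0.58 to 0.70 whichever array was left out.

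Irgm1, a GTPase that regulates the other immunity-related GTPases and autophagy, read 7.48, 7.49 and 7.42 after saline and 7.75, 7.71 and 8.06 after IL-6. The groups did not overlap and IL-6 replicate 3 stood highest. The difference of 0.37 ± 0.10 did not pass (limma adjusted p = 0.350), and it was 0.26 without IL-6 replicate 3. The guanylate-binding proteins Gbp3 (0.21 ± 0.10) and Gbp5 (0.19 ± 0.10) did not pass, and their groups overlapped, with Gbp5 below the 25th percentile of level. Of the probe sets shared between genes, the one for Irgm2 and Igtp differed by 0.52, the one for Gbp6 and relatives by 0.41, the one for Gbp2 and Gbp2b by 0.10 and the one for Isg15 and Gm9706 by -0.03. These signals cannot be assigned to a single gene.

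Antigen-processing genes supply peptides to MHC class I molecules. The immunoproteasome subunits Psmb8, Psmb9 and Psmb10 replace constitutive catalytic subunits, Tap1 and Tap2 form the peptide transporter, Tapbp encodes tapasin, which loads the peptide, B2m encodes the class I light chain, and Nlrc5 encodes a transactivator of class I genes. None of the 8 was called by limma, and 1 had an unadjusted p under 0.05. That gene, Psmb10, read 7.34, 7.21 and 7.32 in saline replicates 1 to 3 and 7.44, 7.42 and 7.55 in IL-6 replicates 1 to 3. The groups did not overlap, with a difference of 0.18 ± 0.08 (limma adjusted p = 0.726). B2m read 12.31, 12.36 and 12.30 after saline and 12.30, 12.30 and 12.32 after IL-6. All 6 values lay close together, with a difference of -0.02 ± 0.07 and a 95% interval from -0.17 to 0.14. Tapbp differed by 0.04 ± 0.08.

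Tap1, Tap2, Psmb8 and Psmb9, which RefSeq orders as Psmb9, Tap1, Psmb8 and Tap2 next to one another on chromosome 17, varied together between the IL-6 arrays. Psmb9 read 7.19, 7.29 and 7.22 in saline replicates 1 to 3 and 7.43, 7.49 and 7.07 in IL-6 replicates 1 to 3. Tap2 read 6.76, 6.82 and 6.72 and then 6.92, 7.01 and 6.67. In both genes IL-6 replicates 1 and 2 were above every saline array and replicate 3 was below every one. Over the 4 genes the median deviation from the saline mean was 0.14, 0.22 and -0.11 in IL-6 replicates 1, 2 and 3, so that the spread within IL-6 exceeded the difference between groups. The 4 genes were singled out after their values were seen. The differences were 0.10 ± 0.11 for Psmb9, 0.10 ± 0.10 for Tap2, 0.08 ± 0.10 for Tap1 and 0.06 ± 0.10 for Psmb8. The constitutive counterparts Psmb6, Psmb5 and Psmb7 differed by 0.09, 0.02 and -0.07.

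Nlrc5 was carried by 19 probe sets. The brightest on average (10574100) differed by 0.14 ± 0.09 with overlapping groups. Over the 19, differences ran from -0.14 to 0.27 with a median of 0.12, and 15 were positive. In 3 of them the IL-6 arrays lay above all saline arrays and in 1 below, against 6.15% and 5.48% of all genes. The 19 probe sets read the same gene on the same 6 arrays, so they are not separate observations of the treatment. None of the 19 passed limma over all probe sets (smallest adjusted p = 0.655), and 2 were higher at an unadjusted p under 0.05 in that fit. The share of 3.78% of all genes comes from the other fit, with a single probe set per gene, so it is not a like measure. Which of these probe sets reports the mature transcript is not shown by these data.

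The RNA sensors gave positive differences in 4 of 4 and no call by limma, with 1 at an unadjusted p under 0.05. Dhx58, which encodes LGP2, a helicase that tunes RNA sensing, read 5.80, 5.68 and 5.79 after saline and 5.81, 6.06 and 6.11 after IL-6. IL-6 replicate 1 was just above the highest saline array, and the difference of 0.24 ± 0.09 did not pass (limma adjusted p = 0.674). The sensors Ifih1, which encodes MDA5, and Ddx58, which encodes RIG-I, differed by 0.05 ± 0.08 and 0.04 ± 0.09. Trim25, a ubiquitin ligase that acts on RIG-I signalling, read 8.14, 8.22 and 8.03 after saline and 8.10, 8.32 and 8.41 after IL-6, a difference of 0.14 ± 0.10 with overlap.

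The ADP-ribosylation group and other induced genes had the narrowest range, from 0.12 to 0.19 over 5 of 5 positive differences, with none called by limma and none at an unadjusted p under 0.05. Parp14 and Parp9, ADP-ribosyltransferase family genes, differed by 0.19 ± 0.09 and 0.13 ± 0.08, and Dtx3l, the ubiquitin ligase partner of PARP9, by 0.16 ± 0.09. These 3 lie side by side in the RefSeq order on chromosome 16. Parp9 read 8.01, 8.12 and 8.22 in saline replicates 1 to 3 and 8.25, 8.32 and 8.17 in IL-6 replicates 1 to 3, where IL-6 replicate 3 fell within the saline range. Xaf1, a pro-apoptotic gene, and Ifi35 differed by 0.15 ± 0.09 and 0.12 ± 0.07.

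**Figure D3:**
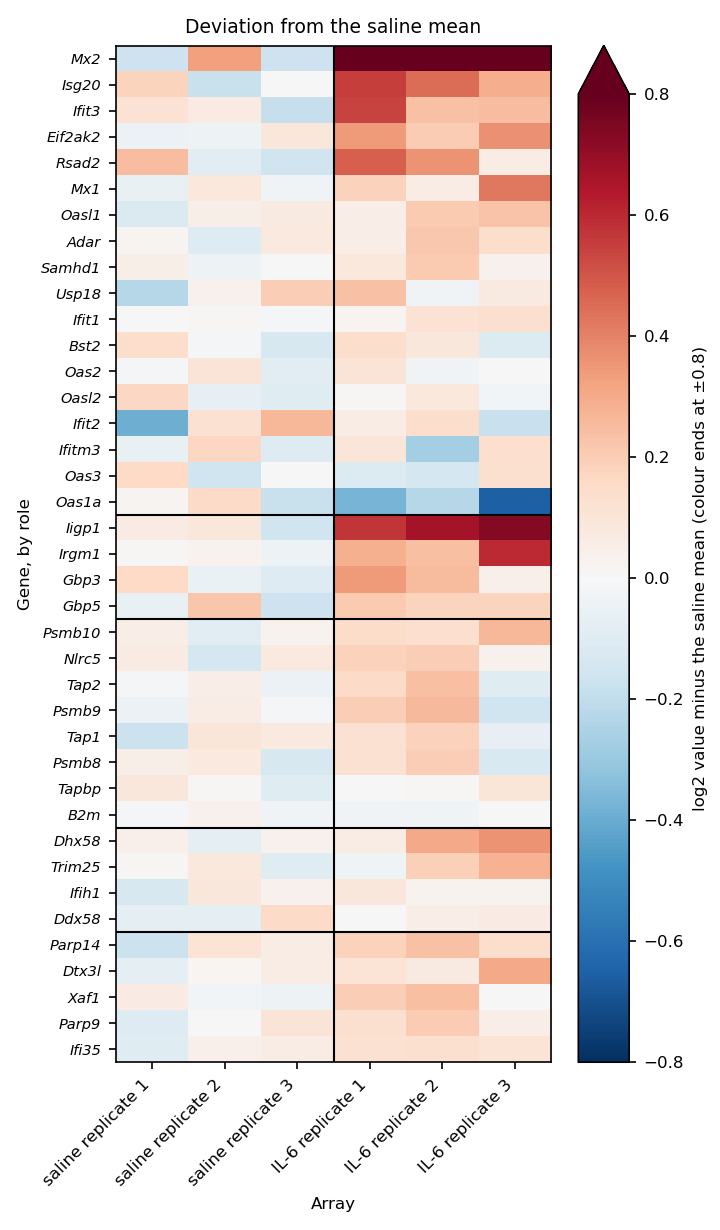
Each row is one of the 39 genes in order of role and difference, each column is an array, and colour gives the log2 value minus the saline mean of the gene, with the colour ending at ± 0.8. The IL-6 columns are above the saline mean for 34, 33 and 29 of the 39 genes in replicates 1, 2 and 3, with Mx2 beyond the colour scale, and Tap2, Psmb9, Tap1 and Psmb8 are below it in IL-6 replicate 3.

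Other genes of the interferon pathway were read from lists of 88 genes, of which 75 were measured. In limma, 1 was called higher and 0 lower, with 9 higher and 2 lower at an unadjusted p under 0.05, and their median difference was 0.07. Over all genes, 0.386% were called higher and 0.0351% lower, with 3.78% higher and 2.83% lower at an unadjusted limma p under 0.05. The called gene among the 75 was Irf1, a transcription factor that binds ISRE-like sites. It read 7.19, 6.96 and 6.98 after saline and 8.15, 7.90 and 8.31 after IL-6. Its difference was 1.07 ± 0.11 (limma adjusted p = 0.00361), and its other probe set differed by 0.02. The mean of both probe sets rose by 0.55 (limma adjusted p = 0.0157), and the call was lost when every probe set was tested (0.0813). Among transcription factors downstream of interferon, 1 of 9 was called and 3 had an unadjusted p under 0.05, with Irf9 at 0.46 ± 0.09 (limma adjusted p = 0.107) and Stat2 at 0.41 ± 0.13 (limma adjusted p = 0.498).

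No other list held a called gene. The interferon ligands had 0 called of 7 in limma, 1 higher and 1 lower at an unadjusted p under 0.05, and the smallest p in Ifna2 (-0.32 ± 0.11, limma adjusted p = 0.531). Ifnb1 and Ifng, which encode interferon beta and gamma, differed by 0.14 ± 0.12 and 0.03 ± 0.16. Of the 7 ligands, 4 lay below the 25th percentile of level (4.59), Ifnb1 among them at a mean of 3.57. Ifng, at 4.63, lay just above it. Readings so close to background do not show whether these transcripts changed. The receptors and kinases had 0 of 9, 1 at an unadjusted p under 0.05, and Ifnar2, a chain of the type I receptor, at 0.25 ± 0.08 (limma adjusted p = 0.531). Of 24 other interferon-stimulated genes 0 were called, with 4 higher and 1 lower at an unadjusted p under 0.05, a median of 0.07, and the smallest p in Rtp4, a chaperone of receptor transport, at 0.34 ± 0.09 (limma adjusted p = 0.332). Of 12 other antigen presentation genes none was called or had an unadjusted p under 0.05, with Psme2, a proteasome activator subunit, at 0.19 ± 0.10. The 14 constitutive proteasome subunits also held 0 calls and none at an unadjusted p under 0.05, with a median of 0.0008 and the smallest p in Psma5 (0.12 ± 0.095).

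**Figure D4:**
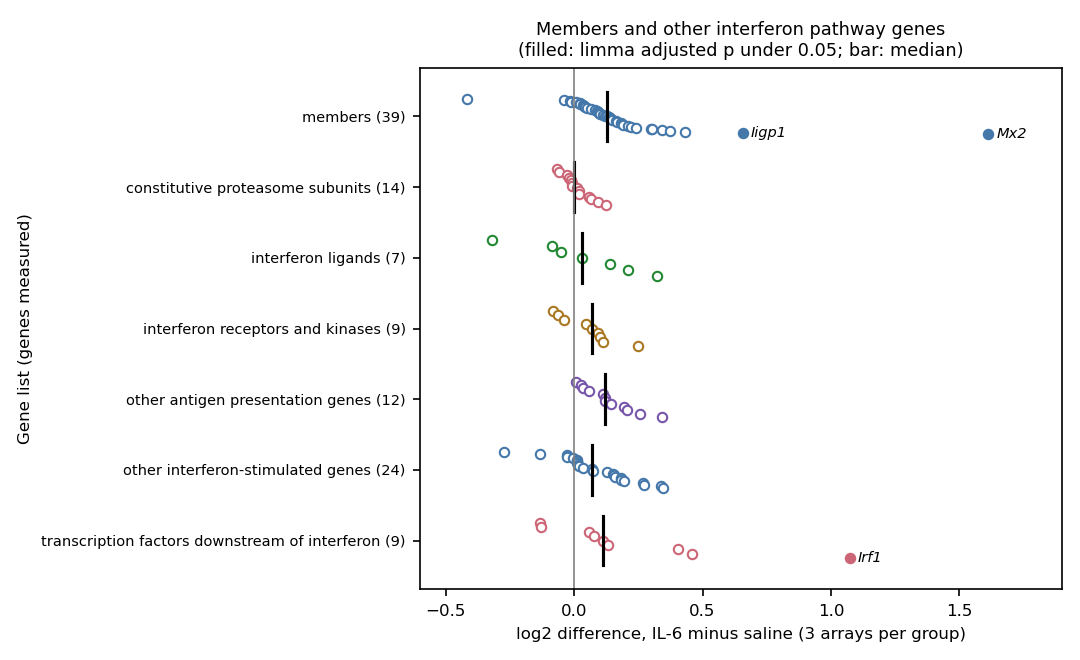
Log2 differences, IL-6 minus saline (horizontal axis, 3 arrays per group), are plotted for the 39 genes and for 6 lists of other pathway genes, with vertical bars at the medians and filled points for limma calls. Mx2, Iigp1 and Irf1 are the filled points, and the constitutive proteasome subunits centre on 0.0008 where the 39 genes centre on 0.13.

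Whole liver holds several cell types, and in bulk RNA a change in the number of cells of a type and a change in RNA per cell cannot be told apart. Hepatocyte markers had a summed log2 level from 15.40 to 15.46 in saline and from 15.44 to 15.47 in IL-6 arrays, with Alb, which encodes albumin, at 13.38 ± 0.02 and 13.42 ± 0.02 (SD, n = 3), as in liver, and 0 of 6 called by limma with none at an unadjusted p under 0.05. Markers of Kupffer cells and macrophages, which also express many of the 39 genes, had 0 of 9 called by limma, 1 at an unadjusted p under 0.05, a median difference of 0.09, and summed levels of 9.64 to 9.80 after saline and 9.71 to 10.00 after IL-6. Plasmacytoid dendritic cell markers, among which Bst2 is also a member, had 0 of 5 called and none at an unadjusted limma p under 0.05, with summed levels of 9.12 to 9.23 and 9.14 to 9.31. Sums were made of unlogged values, so the brightest marker weighs most. Here that is Bst2, at a mean level of 8.45 against 6.66 for Tcf4, so this sum mostly reads a member. For T and NK cells, 0 of 9 were called and none had an unadjusted limma p under 0.05, with summed levels of 8.10 to 8.23 and 8.005 to 8.15. B cell (0 of 3 called by limma, none at an unadjusted p under 0.05) markers ran from 5.78 to 5.97 and from 5.88 to 5.96, those of endothelial cells (0 of 6 called by limma, none at an unadjusted p under 0.05) from 10.47 to 10.57 and from 10.40 to 10.64, and those of neutrophils from 6.88 to 7.02 and from 6.86 to 7.07. Of 6 neutrophil markers 1 was called by limma, S100a8 at 0.65 ± 0.09, at levels below the 25th percentile. Calls in the higher direction were made for 0.386% of all genes. At an unadjusted limma p under 0.05, S100a8 was higher and Ly6g was lower (-0.27 ± 0.10), against 3.78% and 2.83% of all genes. Ly6g also lay below the 25th percentile. The summed levels of saline and IL-6 arrays overlapped in each of these lists. Even so, the values of S100a8 were all higher, and those of Cd8a, Prf1 and Elane all lower, after IL-6. Such separation was seen in 6.15% of all genes in the higher and 5.48% in the lower direction. Of all 44 markers, 12 lay below the 25th percentile of level, and the part of cell makeup in the differences of the 39 genes was not tested. Over all genes, the first principal component (31.6% of the variance) set the groups apart, with saline arrays at 9.4 to 12.2 and IL-6 arrays at -12.17 to -8.74. The second (23.1% of the variance) put saline replicate 2 with IL-6 replicate 3, away from the rest. Without both arrays, a comparison chosen after seeing the data, Mx2 rose by 1.73 (limma adjusted p = 0.00102), Iigp1 had a difference of 0.66 that did not pass (limma adjusted p = 0.160), Irf1 had 0.94 and did not pass (limma adjusted p = 0.0752), and Oas1a had -0.22.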

How the data were processed

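Liver RNA from 3 saline and 3 IL-6 samples was read on 1-colour arrays. The authors deposited log2 values per probe set and, per the submitters' processing notes, computed them with RMA. The RMA version, its options and the build were not given in these sources. The values were used unchanged. Array medians lay between 5.42 and 5.48. Normalizing arrays to one another can remove a shift common to most genes, and the number of arrays limits the precision.

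Of 35556 probe sets, 21789 carried exactly 1 gene symbol in the platform table, 1621 several and 12146 were unlisted. The probe set with the highest mean per gene was kept, which left 19938 genes with no filter. Groups were compared with limma 3.58.1 in R 4.3.3 (lmFit, eBayes, two-sided, Benjamini-Hochberg over all genes, threshold 0.05), a procedure tested on simulated data. Intervals of 95% use limma's standard error. Array values are given for genes that passed, genes at an unadjusted p under 0.05 and the gene with the highest level of each role, and for others that were chosen after their values were seen. Members and lists were chosen with earlier results of these data known. Alternatives were other scalings, filters, probe set rules, variance priors, weights, a block and left-out arrays. Figures used matplotlib 3.10.9.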

Additional observations from a re-analysis of the deposited data

Results flagged for a closer look

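The gene comparison leaves out probe sets to which the platform table gives several symbols. Of those that include one of the 45 genes, 3 had all IL-6 values above all saline values. Among these 3, 2 had an unadjusted limma p under 0.05. Over all genes tested, 6.15% had all IL-6 values higher, and 3.78% were higher at an unadjusted limma p under 0.05. That 3.78% comes from the fit with a single probe set per gene, whereas the p-values here come from the fit over all 35556 probe sets. Probe set 10376326, listed for Irgm2 and Igtp, read 7.11, 7.01 and 7.22 after saline and 7.62, 7.61 and 7.69 after IL-6, so that IL-6 was higher by 0.52 ± 0.08 on the log2 scale (limma adjusted p = 0.150, adjusted over the whole table of 35556 probe sets). Irgm2 and Igtp encode immunity-related GTPases and lie next to each other in the RefSeq gene order. Probe set 10531994, listed for Gbp6 and 5 other guanylate-binding protein genes, read 6.15, 5.94 and 5.88 after saline and 6.53, 6.39 and 6.28 after IL-6, a difference of 0.41 ± 0.11 (limma adjusted p = 0.502). The other, listed for Rps3a1 and Tapbp (10421908), differed by 0.05 (limma adjusted p = 0.945). A further probe set for the same genes (10499121) also differed by 0.05, and its groups overlapped. Groups overlapped too in the probe sets for Gbp2 and Gbp2b, for Isg15 and Gm9706, and for Oas1a and Oas1g. None passed the adjusted threshold, and the genes behind each signal cannot be told apart.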

How the results depend on the processing

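Mx2 kept its call in all 17 alternatives (limma adjusted p from 7.47e-05 to 0.0397, differences from 1.53 to 1.78). Iigp1 lost its call in 7 of 17 (limma adjusted p up to 0.160), so 1 gene in place of 2 was called higher when every probe set was tested, with the replicate block, and without saline replicate 2 and IL-6 replicate 3 together, an alternative chosen after seeing the data. Leaving out 1 array gave 1 to 2. No alternative called a member lower, and none reversed a difference of the 9 genes at an unadjusted p under 0.05 or of Irf1. The median difference over the 39 genes ran from 0.11 without saline replicate 1 to 0.14 without saline replicate 3, and 31 to 36 of 39 differences were positive with 1 array left out. Centring on array medians gave 0.15 and 37 positive, and moved the median of all genes by 0.02. Over all genes, the 77 higher became 45 without saline replicate 3, 46 without IL-6 replicate 1 or 3, and 31 without both arrays set apart. The 7 lower became 3 without IL-6 replicate 1, 4 without saline replicate 2, 2 without both arrays, and 12 at an adjusted p under 0.10. Testing all 35556 probe sets gave 16 higher and 1 lower. The replicate block gave 59 higher and 6 lower. Same-numbered arrays did not deviate together (correlations of 0.08, -0.12 and -0.09 over genes), and not every array correlated best with its own number, so the numbers were not taken as pairs. Levels below 4.59, as in Mx1, Ifit2 and Gbp5 and in the ligand gene Ifnb1, are close to background.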
